A study of Mus musculus with 27 samples.

Results

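Of the 9427 regions whose chromatin opened in Runx1-deficient mK4 cells, 457 carried a Runx ChIP-seq peak, which was 4.85% of them (95% Wilson interval 4.43 to 5.30%). A region was taken as a member when it was on the deposited list of ATAC-seq regions more accessible in Runx1KO than in control cells and shared at least 1 bp with a peak of any of 3 ChIP-seq lists: Runx1 in control cells, Runx2 in control cells and Runx2 in Runx1KO cells. ATAC-seq reads where the Tn5 transposase can reach the DNA, and ChIP-seq reads where an antibody pulls down a bound protein. The mK4 line was derived from mouse metanephric mesenchyme, the tissue that forms the nephrons of the kidney.

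The series held 27 samples in 9 groups of 3: RNA-seq of control, Runx1KO and ZebDKO cells, ATAC-seq of control and Runx1KO cells, and ChIP-seq with a Runx1 or a Runx2 antibody in control and Runx1KO cells. Control cells were unedited mK4 cells (labelled WT). Runx1KO cells were sub-lines of them in which CRISPR/Cas9 had removed exon 3 of Runx1, and ZebDKO cells were made in the same way with cuts at the first coding exons of Zeb1 and Zeb2, so ZebDKO cells kept Runx1. The edited cells grew from picked clones, and a clone's own differences cannot be told apart from its genotype. No ChIP-seq or ATAC-seq of ZebDKO cells was analysed here.

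Runx proteins bind a short DNA consensus through their Runt domain together with the partner Cbfb, and they activate or repress transcription according to the cofactors present, which include the Groucho-related Tle corepressors. Zeb1 and Zeb2 are zinc finger repressors that bind E-box sequences and hold epithelial genes silent in mesenchymal cells. AP-1, made of Fos and Jun proteins, occupies many enhancers. A region that opens when Runx1 is lost and yet carries a Runx peak is thus a place where a Runx protein was detected on chromatin that became more accessible without Runx1.

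The sequences under the ChIP-seq peaks show what these regions look like. Each is a window of 120 bases of the plus strand of mm9 centred on the summit of a Runx peak of the region. Each match to the Runx consensus is in capitals, as TGTGGT on the plus strand or ACCACA where the match lies on the minus strand. Regions are named for the gene with the nearest transcription start. The first set has the highest Runx1 peaks among members with Runx1 in control cells, apart from the Prss42 region. That region, with a Runx1 fold of 9.70, was passed over for an untranslated exon in its window. The windows of the set are centred on the Runx1 summit. All 3 of its regions also had Runx2 peaks in both lines. Their Runx2 peaks of control cells had higher folds (12.8, 10.4 and 9.11) than their Runx1 peaks (9.94, 9.33 and 8.02).
Gm6713 region (chr10:85102467-85102586): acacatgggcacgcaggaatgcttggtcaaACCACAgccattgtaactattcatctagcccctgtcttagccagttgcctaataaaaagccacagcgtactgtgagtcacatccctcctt
Sgip1 region (chr4:102532027-102532146): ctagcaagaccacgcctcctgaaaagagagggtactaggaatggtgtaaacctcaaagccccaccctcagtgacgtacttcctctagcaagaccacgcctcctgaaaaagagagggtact
Chd4 region (chr6:125039953-125040072): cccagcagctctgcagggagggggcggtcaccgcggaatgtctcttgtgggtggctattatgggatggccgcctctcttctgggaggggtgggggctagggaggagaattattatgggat

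The windows of the second set come from members with Runx2 in both lines and no Runx1 peak.
Vmn1r1 region (chr1:184078504-184078623): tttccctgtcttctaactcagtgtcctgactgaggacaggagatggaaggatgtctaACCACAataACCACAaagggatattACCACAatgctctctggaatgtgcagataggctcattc
Entpd5 region (chr12:85734957-85735076): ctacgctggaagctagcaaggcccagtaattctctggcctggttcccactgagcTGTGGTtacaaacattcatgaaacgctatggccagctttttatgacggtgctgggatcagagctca
Vav1 region (chr17:57414713-57414832): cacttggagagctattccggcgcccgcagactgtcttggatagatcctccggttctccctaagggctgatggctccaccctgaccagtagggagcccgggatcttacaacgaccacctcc

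Members with a Runx peak in Runx1KO cells and none in control cells gave the third set.
Alkbh1 region (chr12:88757742-88757861): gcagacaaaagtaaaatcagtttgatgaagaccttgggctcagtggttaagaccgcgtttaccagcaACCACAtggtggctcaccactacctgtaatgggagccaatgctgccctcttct
Stra8 region (chr6:34872096-34872215): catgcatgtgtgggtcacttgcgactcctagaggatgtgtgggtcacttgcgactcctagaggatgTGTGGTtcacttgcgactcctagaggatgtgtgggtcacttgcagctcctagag

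The last set had Runx2 in control cells alone.
Gpr157 region (chr4:149434246-149434365): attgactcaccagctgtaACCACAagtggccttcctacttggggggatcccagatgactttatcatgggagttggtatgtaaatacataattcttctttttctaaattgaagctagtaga
Gstt2 region (chr10:75299106-75299225): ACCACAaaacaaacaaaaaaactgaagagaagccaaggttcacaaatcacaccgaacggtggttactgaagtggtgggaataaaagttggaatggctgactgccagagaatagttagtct

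A Runx consensus was found in 7 of these 10 windows. The window of the Vmn1r1 region held 3 in a row on the minus strand. The windows of the Sgip1, Chd4 and Vav1 regions held no exact match, although their peaks were among the highest. Other spellings of the consensus were not searched. For 2 of the 10, the Vmn1r1 and Gpr157 regions, the summit lay just outside the ATAC-seq region that the peak overlapped. In the Stra8 region a short stretch recurred along the window, and only 1 copy of it spelled the consensus.

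Opening regions were the class least often marked by Runx. A Runx peak was present in 4.85% of them, against 26.2% of the 8741 closing regions and 28.2% of the 37481 regions listed as stable. The share grew with the width of the region. It was 2.08% (96 of 4626) in opening regions under 500 bp, 5.25% (144 of 2743) between 500 and 750 bp, 7.96% (96 of 1206) between 750 and 1000 bp and 14.2% (121 of 852) from 1000 bp on. Closing and stable regions were not split by width, so the classes were not compared at equal width. Members had a median width of 730 bp and other opening regions 496 bp, and part of this follows from the rule, since a wider region meets a peak more easily. Members lay on all chromosomes with 50 of the 883 opening regions of chromosome 11 and 5 of the 164 of chromosome X, and the share per chromosome ran from 3.05 to 6.21%. All ATAC-seq and ChIP-seq lists were made from merged or intersected replicates and hold no value per replicate. Their shares are descriptions without a test, and the intervals cover counting error only.

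The rule left few doubtful cases. The smallest of the largest overlaps per member was 46 bp, 2 members shared under 50 bp with a peak, and the median was 223 bp. The summit of at least 1 overlapping peak lay inside the region in 447 of 457 members. Just outside the rule, 2 opening regions had a peak within 50 bp, the nearest at 8 bp, and 246 had one within 1 kb. At the other edge, 43 members had a deposited ATAC-seq log2 fold change less than 0.05 above 1, and 29 Runx-marked regions listed as stable had one less than 0.05 below it.

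Most members carried Runx2, and the line in which the peak was called differed between them. A Runx2 peak in control cells was present in 343 members, a Runx2 peak in Runx1KO cells in 309, and a Runx1 peak in 118 (25.8%, 22.0 to 30.0%). In 206 members (45.1%) a Runx peak was listed for both lines, in 148 (32.4%, 28.3 to 36.8%) for control cells alone and in 103 (22.5%, 19.0 to 26.6%) for Runx1KO cells alone. Regions of the other classes had peaks in both lines more often, 60.1% of closing and 70.0% of stable Runx-marked regions. Peaks of control cells alone made up 23.8% of closing and 14.0% of stable ones, and peaks of Runx1KO cells alone 16.1 and 16.0%.

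**Figure D1:**
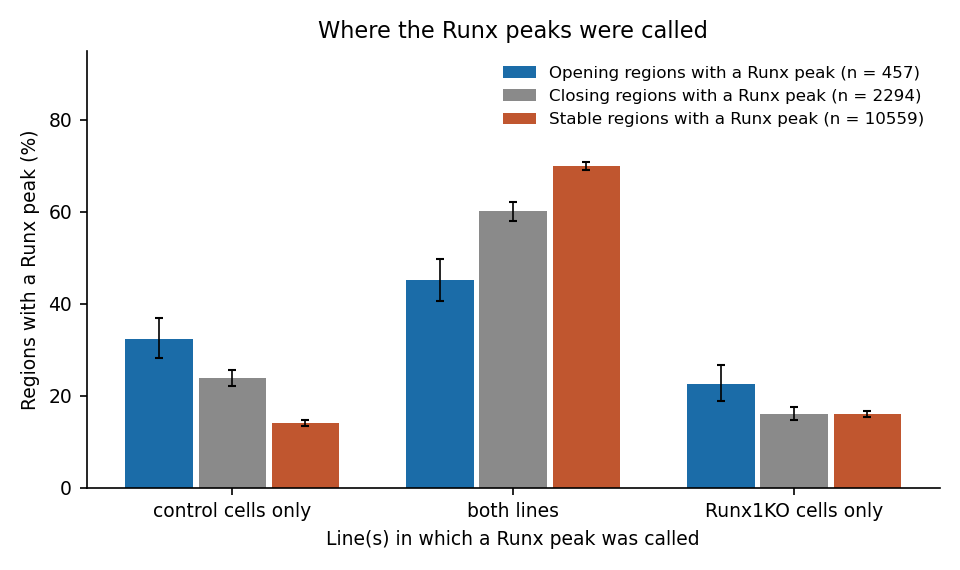
Share of Runx-marked ATAC-seq regions (vertical axis, percent) whose Runx peaks were listed for control cells alone, for both lines or for Runx1KO cells alone, in opening, closing and stable regions; bars are shares and error bars 95% Wilson intervals. The opening regions have the lowest bar for both lines (45.1%) and the highest for each line alone (32.4 and 22.5%).

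Among the 118 members with a Runx1 peak, 87 had Runx2 in both lines as well, 20 had Runx2 in control cells alone, 1 had it in Runx1KO cells alone, and 10 had Runx1 with no Runx2 peak. Of the 339 members without Runx1, 118 had Runx2 in both lines, 118 in control cells alone and 103 in Runx1KO cells alone. The study's methods name a q limit of 0.01, but the lists hold q values up to 0.0455 for Runx1 and 0.0494 for both Runx2 lists, and 446 members remained with peaks of q at most 0.01. Peaks that the Runx1 antibody gave in Runx1KO cells had been removed, so a missing peak means that none was listed, and absence of binding cannot be read from it. The lists also differed in length, with 10187 Runx1, 17595 Runx2 control and 15608 Runx2 Runx1KO peaks.

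Where Runx2 had a peak in both lines, its deposited heights in the 2 lists were mostly close. Members with a Runx2 peak in a single line are left out here, which favours similar heights. Over 205 such members the median deposited fold over background was 4.56 in control cells and 4.27 in Runx1KO cells. The ratio of Runx1KO to control had a median of 0.940 (quartiles 0.806 and 1.09) and ran from 0.468 to 2.24, and it exceeded 1 in 83 members (40.5%, 34.0 to 47.3%). The median ratio was 0.930 in 1362 closing and 0.973 in 7325 stable regions. Each list has 1 value per peak and no scaling between lists, so single ratios cannot be tested.

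**Figure D2:**
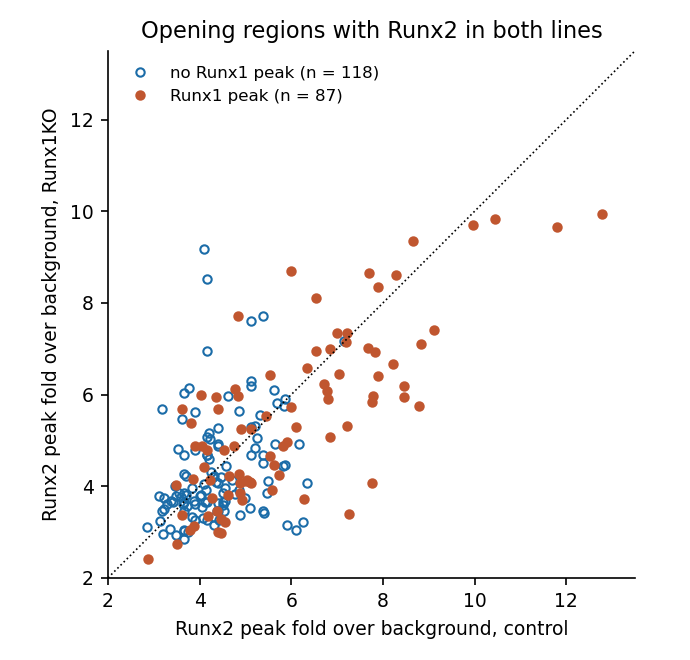
Deposited Runx2 peak fold over background in control cells (horizontal axis) and Runx1KO cells (vertical axis) for the 205 opening regions with a Runx2 peak in both lines; each point is a region, filled where a Runx1 peak was also present (87) and open where not (118), and the dotted line marks equal folds. Points lie on both sides of the line, with 83 above it, and the highest folds belong to regions with a Runx1 peak.

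The members with the highest Runx peaks, the 5 with the highest fold of each ChIP-seq list, made up 8 regions, whose ATAC-seq log2 fold change ran from 1.03 to 2.58 beside a median of 1.42 over all members. The member near Gm6713 at chr10:85102220-85103559, in an annotated exon 70627 bp from the start of Gm6713, had folds of 9.94 for Runx1, 12.8 for Runx2 in control cells and 9.94 for Runx2 in Runx1KO cells, with an ATAC-seq log2 fold change of 1.04. The member in the untranslated sequence of Prss42 at chr9:110705828-110706165 had 9.70, 8.22 and 6.67, again with 1.04. In an intron of Sgip1, chr4:102531573-102532705 had 9.33, 10.4 and 9.82 with 1.25. Upstream of Chd4, a chromatin remodelling ATPase, chr6:125038531-125040425 had 8.02, 9.11 and 7.41 with 1.64. The region 3892 bp upstream of Gnaq, a G protein subunit gene, at chr19:16203309-16203548, opened most of these 8, by 2.58, and had folds of 7.92, 7.20 and 7.33. The remaining 3, near Zfp407, Slc47a2 and Cyp24a1, opened by 1.49, 1.58 and 1.03. All 8 carried peaks of all 3 lists, and the Zfp407 region held 8 Runx matches in 508 bp.

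The genes nearest to these 8 regions did not pass the expression test. Chd4 measured 88.7, 94.0 and 108.9 TPM (a level scaled for transcript length and library size) in the control libraries and 98.1, 98.6 and 97.6 in the Runx1KO libraries, and the groups overlapped. Gnaq measured 62.0, 58.9 and 60.2 in control, 46.6, 45.2 and 46.0 in Runx1KO and 36.5, 40.5 and 37.5 in ZebDKO cells. Its groups did not overlap, but the log2 difference to control, -0.39 in Runx1KO and -0.65 in ZebDKO, stayed short of 2-fold. Zfp407 was near 17 TPM in each line, with 16.9 to 17.3 in control, 18 to 18.4 in Runx1KO and 15.7 to 18.1 in ZebDKO libraries. Prss42, Sgip1, Slc47a2 and Cyp24a1 were at 1.5 TPM or lower in each of the 9 libraries and were not tested, and Gm6713 was not matched in the expression table.

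The 5 members that opened most had strongest Runx peaks with folds of 3.46 to 5.72, beside a median of 4.31 over all members, and 4 of them had peaks of control cells alone. The promoter region of Rnf39, a RING finger gene, at chr17:37079269-37079997 had the highest ATAC-seq log2 fold change, 4.11, and a Runx2 peak of control cells with a fold of 4.39. It was followed by chr5:135477101-135477635 near Abhd11 with 3.79 and a Runx2 peak of Runx1KO cells at 3.46. The promoter region of Tmem125, a membrane protein gene, at chr4:118215768-118216864 had 3.70 and a Runx2 peak of control cells at 4.15. A region 67299 bp from Smad7, an inhibitor of TGF-beta signalling, had 3.61 with Runx1 and Runx2 peaks of control cells at 5.72 and 4.93. The promoter region of Fbxo43 at chr15:36094377-36095012 had 3.55 and a Runx2 peak of control cells at 3.91. The ATAC-seq values are the authors' own fold changes, and they were used to make the list. Over all members their median was 1.42 (range 1.0 to 4.11). It was 1.61 for peaks of control cells alone, 1.33 for both lines and 1.43 for Runx1KO cells alone, beside 1.58 for opening regions without Runx. The median fold of the strongest peak was 4.08, 5.12 and 3.57 for the same 3 patterns, where members with peaks in both lines have more peaks to take the strongest from.

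Only some members held an exact match to the Runx consensus. Spellings that differ from TGTGGT were not searched, so a region without a match may hold a related sequence. The Runx consensus TGTGGT, searched on both strands, occurred in 303 of 457 members (66.3%, 61.9 to 70.5%) over their whole length, and in 40.5% of all 55649 ATAC-seq regions. Regions differ in width, so equal windows compare better. In the 200 bp around the middle of the region, 29.1% of members (25.1 to 33.4%) had a match, against 13.7% of opening regions without a Runx peak, 44.9% of closing and 17.7% of stable regions with one, and 16.2% of all ATAC-seq regions. In the 200 bp around the summit of the strongest peak the share was 47.7% for members, 65.4% for closing and 33.0% for stable regions. The share at the summit was 50, 46.6 and 46.6% for peaks of control cells alone, of both lines and of Runx1KO cells alone, so it hardly followed the pattern. With a Runx1 peak it was 50.9%, and without 46.6%. A match lay within 25 bp of the summit in 95 members (20.8%), within 50 bp in 152 (33.3%) and within 100 bp in 220 (48.1%). At least 2 matches were found in 106 members (23.2%) and at least 3 in 37.

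The Zeb consensus was frequent in members, as it was in the other opening regions. In the 200 bp around the middle, CAGGTA or CAGGTG on either strand occurred in 43.5% of members (39.1 to 48.1%), in 51.2% of opening regions without a Runx peak, in 12% of closing and 19.9% of stable Runx-marked regions, and in 26.3% of all ATAC-seq regions. The 200 bp around the Runx summit gave 40.0, 12.2 and 19.5% for members, closing and stable regions. Over the whole region 256 members (56.0%) held both consensus sequences, 118 held Zeb without Runx, 47 Runx without Zeb and 36 neither. The printed windows showed the Zeb letters in 1 of 10, the window of the Alkbh1 region. The AP-1 consensus, TGACTCA or TGAGTCA, was less frequent in members than in the other opening regions, with 15.8% (12.7 to 19.4%) against 27.7%, but the difference depended on width. Under 500 bp the shares were 14.6 and 35.7%, from 500 to 750 bp 20.1 and 24.4%, from 750 to 1000 bp 18.8 and 14.6%, and from 1000 bp on 9.09 and 9.44%. It stood at 20.4% of closing, 9.23% of stable and 21.1% of all ATAC-seq regions. The Grhl consensus AACCNGTT was present in 2.19% of members and 1.29% of all regions in the same window, and the Ctcf consensus in 1.31 and 2.95%. Each consensus was searched on its own, so matches to different ones may share bases, and a match is a description of the sequence and no proof of a bound site.

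**Figure D3:**
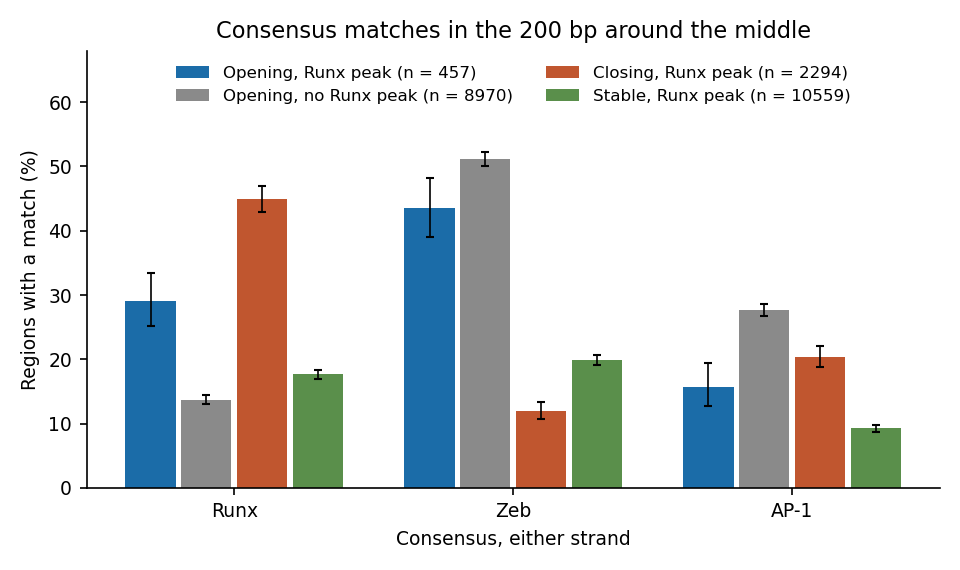
Share of regions (vertical axis, percent) with a match to the Runx, Zeb or AP-1 consensus on either strand in the 200 bp around the middle, for opening regions with and without a Runx peak and for closing and stable regions with one; error bars are 95% Wilson intervals. For Runx the members (29.1%) lie between the other opening (13.7%) and the closing regions (44.9%), and for Zeb they lie near the other opening regions (43.5 and 51.2%).

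The share with a Runx match depended on width. Among regions under 500 bp, 52.1% of members and 14.6% of opening regions without a Runx peak had one in the 200 bp around the middle. Between 750 and 1000 bp the shares were 16.7 and 11.8%. The distance of the peak from the middle by width was not tested.

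Repeated sequence was more frequent in members. A stretch of 20 bases occurred again on the same strand, simple repeats included, in the 500 bp around the middle of 76 members (16.6%, 13.5 to 20.3%), in 11.3% of opening regions without Runx, in 9.63% of closing and 8.98% of stable Runx-marked regions. Around the summit of the strongest peak it was 18.6% for members, and 23.0, 11.7 and 26.2% for peaks of control cells alone, of both lines and of Runx1KO cells alone. Of the 8 strongest regions, 3 had such a repeat, those near Prss42, Sgip1 and Zfp407. Reads from repeats are harder to place, and the part of this in the peaks was not tested.

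Members lay nearer to genes than other opening regions. A promoter, taken as within 1 kb of a transcription start, was met by 59 members (12.9%, 10.1 to 16.3%), against 6.0% of opening regions without a Runx peak. It was met by 4.45% of closing and 52.6% of stable Runx-marked regions, and by 18.3% of all ATAC-seq regions, a larger share than in members. Introns held 157 members (34.4%) and the space between genes 215 (47.1%). Coding exons held 11, untranslated exon sequence 8 and other exons 7. The median distance to the nearest start was 14630 bp, against 21660 bp for the other opening regions, and 36 members (7.88%) were farther than 100 kb. Another opening region lay within 10 kb of 157 members (34.4%, beside 31.9% for those without Runx). A stable region lay within 10 kb of 269 (58.9%, beside 52.6%) and a closing region within 10 kb of 43 (9.41%, beside 8.4%). The last share was 14.2, 5.34 and 10.7% for peaks of control cells alone, of both lines and of Runx1KO cells alone.

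The genes around the members were then read in the RNA-seq. Genes were assigned by the GREAT rule, in which each gene has a domain of 5 kb upstream and 1 kb downstream of its start that is extended to the next gene's domain by at most 1000 kb, and expression was tested with limma on log2(TPM + 1) with Benjamini-Hochberg adjustment over all tested genes. A gene was called at a change over 2-fold and an adjusted p under 0.05. On this scale the changes of low genes are understated. In bulk RNA, fewer cells expressing a gene and less RNA per cell cannot be told apart. The Runx1KO and ZebDKO comparisons share the 3 control libraries, so their values are set side by side and not related to each other.

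Among genes assigned to members, a larger share was called higher than among all tested genes, in both knockouts. Of 768 assigned genes, 524 passed the filter in the Runx1KO comparison, and 107 (20.4%, 17.2 to 24.1%) were called higher and 16 (3.05%) lower. Of all 11713 tested genes with a gene model, 7.7% were higher and 5.15% lower. In ZebDKO cells 508 were tested, with 84 (16.5%, 13.6 to 20.01%) higher and 22 (4.33%) lower, beside 7.2% and 6.92% of all tested genes. The median log2 difference of the members' genes was 0.22 in Runx1KO and 0.01 in ZebDKO, beside -0.06 and -0.18 for all tested genes. Median-ratio scaling of the libraries moved the ZebDKO median of all genes to 0.004, and the share of higher among all calls in ZebDKO from 50.8 to 64.2%. For the members' genes that share went from 79.2 to 84.7%. The genes of opening regions without a Runx peak had 13.8% higher and 4.56% lower in Runx1KO cells. Those of closing regions with a Runx peak had 5.08% higher and 12.7% lower, and those of stable ones 4.95 and 3.70%. In ZebDKO cells the genes of opening regions without a Runx peak had 11.4% higher and 6.31% lower. The gene sets overlap, since 574 of the 768 genes were assigned to another opening region as well. Of these, 400 were tested in the Runx1KO comparison and 87 (21.8%) were higher. Of the 194 genes with members alone, 124 were tested and 20 (16.1%, 10.7 to 23.6%) were higher, and of 4583 genes of Runx-free opening regions alone 599 (13.1%) were higher. In ZebDKO cells 12 of 122 tested genes with members alone (9.84%, 5.72 to 16.4%) were higher, beside 10.7% of genes with Runx-free regions alone. That interval includes the 7.2% of all tested genes. In either knockout the intervals are wide enough that no difference between genes with members alone and genes with Runx-free regions alone can be read from them.

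The share called higher in Runx1KO cells was close to equal by the line in which Runx was found under the GREAT rule. It was 21.2% for peaks of control cells alone, 21.1% for both lines and 20.5% for Runx1KO cells alone, and 19.4% with a Runx1 peak against 21.0% without. With starts within 20 kb it was 32.5% (23.1 to 43.5%), 26.7% (20.5 to 33.9%) and 41.1% (29.2 to 54.1%), with intervals that overlap. In ZebDKO cells the shares were 23.1% (17.5 to 30.0%), 14.1% (10.3 to 19.1%) and 14.5% (9.27 to 22.0%), with intervals that overlap.

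The share of genes called higher changed with distance. Where a member lay within 1 kb of a gene's start, 33 of 51 tested genes (64.7%, 51 to 76.4%) were higher in Runx1KO cells and none was lower, which was near the 66.3% for opening regions without a Runx peak. The share fell to 23.5% at 1 to 10 kb, 16.7% (12.1 to 22.6%) at 10 to 50 kb, 11.9% (6.6 to 20.5%) at 50 to 100 kb and 9.09% (4.86 to 16.4%) beyond 100 kb. Opening regions without a Runx peak had 16.9, 7.52 (6.46 to 8.74), 4.34 (3.06 to 6.13) and 4.37% (3.04 to 6.24%) in the same classes. Between 10 and 100 kb the intervals of the members and of the Runx-free regions did not overlap. In ZebDKO cells the members gave 35.3, 17.2, 17.8, 10.6 and 8.51%, and the Runx-free regions 50.4, 12.9, 8.66, 3.52 and 3.91%. Members were wider, and their genes often had several opening regions. The part of either in these shares was not tested.

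**Figure D4:**
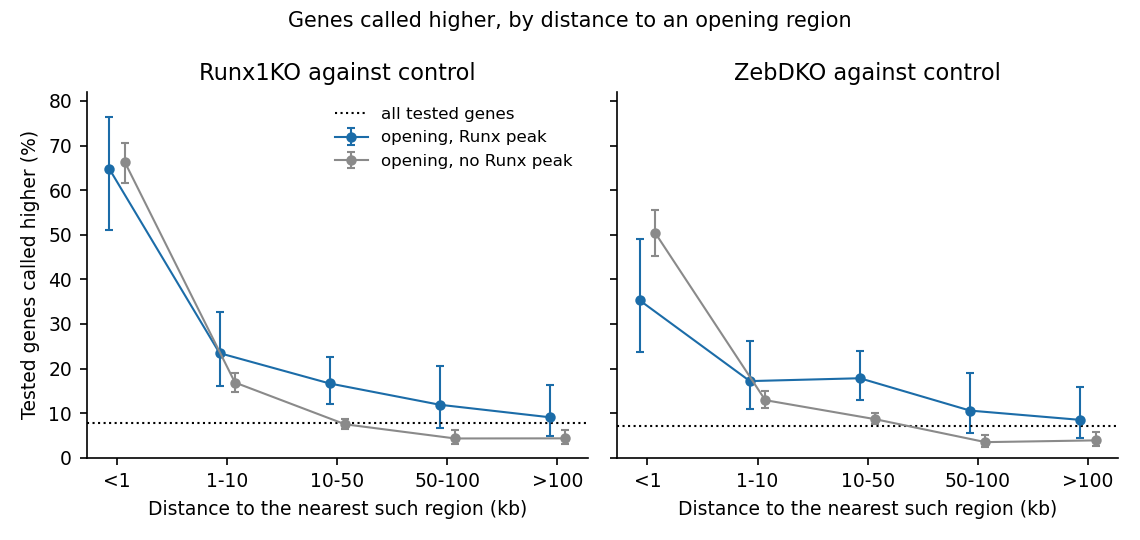
Share of tested genes called higher than control (vertical axis, percent) by distance from the gene's start to its nearest opening region with or without a Runx peak (horizontal axis, kb), for Runx1KO (left) and ZebDKO (right); error bars are 95% Wilson intervals and the dotted line is the share of all tested genes. The 2 curves start close together in Runx1KO cells (64.7 and 66.3%), and beyond 10 kb the genes near Runx-marked regions lie above the others.

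The edited genes were checked first. Runx1 measured 18.7, 15.6 and 17.9 TPM in control and 30.3, 30.1 and 28.5 in Runx1KO libraries. These values sum reads over the whole gene, and the edit removed 1 exon, so they do not check the label. Zeb1 measured 15.1, 14.2 and 15.6 in control and 16.8, 16.6 and 14.8 in ZebDKO libraries, where the same limit holds, and fell to 0.1, 0.2 and 0.2 in Runx1KO libraries. Zeb2 measured 5.5, 4.9 and 5.2 in control, 1.7, 1.8 and 1.6 in ZebDKO and 0.2 in each Runx1KO library. No member lay within 100 kb of Zeb1 or Zeb2.

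Of the genes assigned a member within 100 kb, 425 were tested, of which 98 were higher in Runx1KO cells and 11 lower, beside 7.7% and 5.15% of all tested genes, and the 12 with the largest rise covered several kinds of gene. B3gnt3, a glycosyltransferase that extends carbohydrate chains, had the largest. It measured 0.5, 0.5 and 0.2 TPM in control, 113.7, 107.9 and 114.0 in Runx1KO and 39.7, 35.7 and 37.5 in ZebDKO libraries. The log2 difference was 6.34 ± 0.09 (SE, n = 3 against 3, limma adjusted p = 1.06e-08) in Runx1KO and 4.79 in ZebDKO cells. The groups did not overlap. Its promoter region opened by 3.17, with a Runx1 peak of fold 3.73. B4galnt3, another glycosyltransferase, had 2.5, 2.0 and 1.4 TPM in control, 79.4, 74.5 and 72.0 in Runx1KO and 29.1, 27.9 and 26.1 in ZebDKO libraries, and its intronic member had a Runx2 peak of control cells.

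Genes tied to epithelial structure were among them. Krt18, a keratin of simple epithelia, measured 0.3, 0.1 and 0.0 TPM in control, 31.2, 31.5 and 34.6 in Runx1KO and 37.4, 44.6 and 46.5 in ZebDKO libraries. It was close to silent in control cells and was highest in ZebDKO libraries. The log2 differences were 4.89 ± 0.11 (limma adjusted p = 4.75e-08) and 5.28 ± 0.12 (limma adjusted p = 5.79e-08). The member 17565 bp from its start had Runx1 at 5.55 and Runx2 at 7.82 in control and 6.93 in Runx1KO cells, and opened by 1.06. Fermt1, an integrin adaptor of epithelial cells, had 0.0, 0.0 and 0.1 TPM in control, 33.4, 31.1 and 33.3 in Runx1KO and 44.0, 46.2 and 43.1 in ZebDKO libraries. Rnf39, at the promoter that opened most, had 0.1, 0.3 and 0.1, then 23.3, 27.7 and 29.6, then 14.9, 14.2 and 16.1 TPM in control, Runx1KO and ZebDKO libraries.

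For other genes the ZebDKO level was far below the Runx1KO level. Tekt5, a tektin of ciliary and flagellar microtubules, had 0.1 TPM in each control library, 60.4, 59.7 and 59.0 in Runx1KO and 2.7, 2.3 and 2.3 in ZebDKO libraries. Entpd3, an ectonucleotidase, had 0.2, 0.1 and 0.1, then 39.4, 38.7 and 37.9, then 1.1, 1.3 and 1.0. The log2 difference of Entpd3 was 5.13 in Runx1KO cells and 0.91 in ZebDKO cells, and the latter did not pass 2-fold, although it did with pseudocounts of 0.5 and 0.1 (1.37 and 2.42 for Entpd3). Set directly against ZebDKO, Runx1KO libraries were higher by 4.15 for Tekt5 (limma adjusted p = 1.39e-08) and by 4.22 for Entpd3 (limma adjusted p = 1.59e-08). Rassf6, a Ras association domain gene, and Dpep1, a dipeptidase of the renal brush border, were likewise higher in Runx1KO than in ZebDKO cells, by 2.80 and 2.47. Tekt5, Rassf6 and Dpep1 were still called higher in ZebDKO than in control cells, with log2 differences of 1.64, 2.135 and 2.361.

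Like all of these 12 genes but Entpd3, the other 3 were called higher in both knockouts. Capsl, a calcyphosine-like gene, had 0.4, 0.2 and 1.2 TPM in control, 124.1, 116.9 and 126.9 in Runx1KO and 30.7, 28.1 and 30.3 in ZebDKO libraries. Ucp2, a mitochondrial uncoupling protein, had 4.3, 5.0 and 4.4, then 230.1, 239.4 and 229.8, then 94.2, 97.2 and 100.9. Tmem51 was listed at 0 in the control libraries and at 29.1, 31.5 and 29.0 in Runx1KO and 17.2, 19.7 and 17.7 in ZebDKO libraries. The 12 members of these 12 genes split into 5 with peaks of control cells alone, 5 of both lines and 2 of Runx1KO cells alone. A Runx consensus lay in 9 of them and a Zeb consensus in 8, beside 66.3 and 81.8% of all members over their whole length.

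Genes assigned a member within 100 kb that fell in Runx1KO cells numbered 11. Lrp1, a large endocytic receptor, measured 61.5, 48.6 and 56.0 TPM in control, 7.2, 7.4 and 7.5 in Runx1KO and 20.9, 25.6 and 20.5 in ZebDKO libraries, a log2 difference of -2.75 ± 0.08 (limma adjusted p = 2.19e-07) and -1.27. Its intronic member had a Runx1 peak and opened by 1.11. Col5a1, a fibrillar collagen chain, measured 97.4, 92.7 and 98.7, then 17.7, 17.1 and 17.6, then 47.4, 49.3 and 48.0, with an intronic member that opened by 1.02. Cd80, a costimulatory ligand of T cells, measured 21.6, 21.1 and 20.4, then 1.2, 0.6 and 0.7, then 1.6, 1.7 and 1.4. These groups did not overlap, and all 3 genes were highest in control cells.

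Eid2, an inhibitor of differentiation, had the largest fall, from 12.9, 13.9 and 15.5 TPM to 0.1, 0.4 and 0.2 in Runx1KO and 5.6, 4.8 and 5.1 in ZebDKO libraries. Fmod, a small proteoglycan of the matrix, and Angpt4, an angiopoietin, were at 2.6 TPM or lower in each library. Fmod had 2 members between it and Btg2, the nearer 23890 bp from its start. Btg2, an antiproliferative gene, measured 342.8, 334.4 and 330.1 in control and 605.6, 639.2 and 641.7 TPM in Runx1KO libraries, a log2 difference of 0.90 that stayed under 2-fold. Uchl1, a deubiquitinase, measured 1.6, 1.5 and 1.9 TPM in control, 0.3, 0.0 and 0.0 in Runx1KO and 5.8, 6.0 and 8.8 in ZebDKO libraries, so it was called lower in one knockout and higher in the other.

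The remaining 4 fell by 1.02 to 1.28 on the log2 scale. Megf6 measured 4.2, 4.1 and 4.2 TPM in control, 1.1, 1.0 and 1.3 in Runx1KO and 4.5, 3.8 and 4.1 in ZebDKO libraries. Cldn1, a tight junction claudin, measured 44.7, 40.0 and 41.3, then 21.2, 18.4 and 19.7, then 50.5, 52.0 and 47.1. Zfp36l2, an RNA-binding protein that speeds mRNA decay, measured 285.1, 244.5 and 289.6, then 137.0, 131.8 and 131.4, then 188.4, 190.3 and 194.8. Mgst2, a microsomal glutathione transferase, measured 6.4, 6.3 and 8.9, then 2.3, 4.5 and 2.0, then 2.1, 1.4 and 1.7, and its call was lost without 1 library (log2 difference -0.999, -0.93 and -0.955 without Runx1KO replicate 1, Runx1KO replicate 3 and control replicate 3). The call of Zfp36l2 was lost likewise (-0.99 without control replicate 1 and -0.98 without control replicate 3). Median-ratio scaling took the calls of Zfp36l2 (-0.964) and Cldn1 (-0.992) just under 2-fold. The 12 members of these 11 genes had peaks of control cells alone in 5, of both lines in 2 and of Runx1KO cells alone in 5. A Runx consensus lay in 9 of them and a Zeb consensus in all 12, beside 66.3 and 81.8% of all members over their whole length. With 12 regions, no difference from all members can be read from these counts.

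**Figure D5:**
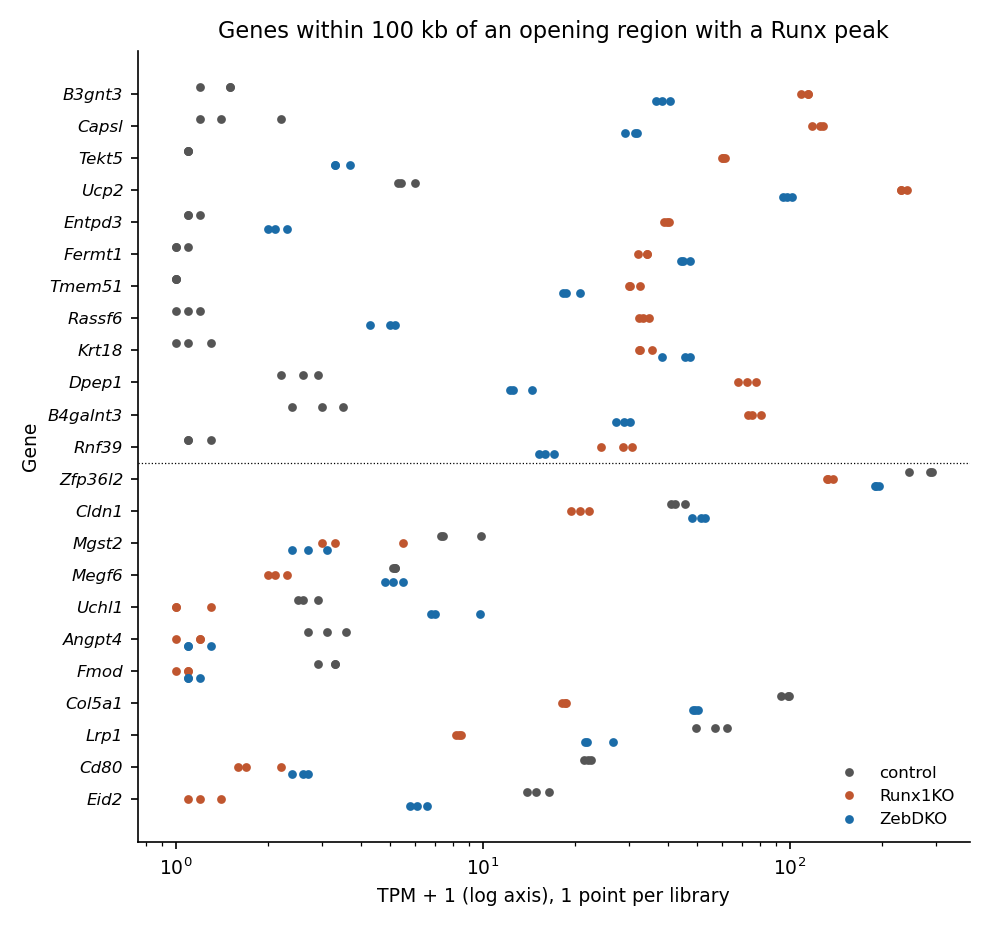
Expression (horizontal axis, TPM + 1 on a log axis) of the 12 genes with the largest rise (above the line) and the 11 genes that fell (below) in Runx1KO cells among genes assigned a Runx-marked opening region within 100 kb; each point is 1 library of control, Runx1KO or ZebDKO cells. The libraries of a line cluster tightly, and the ZebDKO points lie at or beyond the Runx1KO level for Krt18 and Fermt1 and near the control level for Entpd3 and Megf6.

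Among the genes nearest to the regions that opened most, Tmem125 had 0.0, 0.1 and 0.0 TPM in control, 19.9, 20.8 and 19.1 in Runx1KO and 2.8, 2.3 and 2.9 in ZebDKO libraries. Abhd11, a mitochondrial hydrolase, had 11.5, 12.2 and 10.2, then 24.5, 23.9 and 22.3, then 13.5, 12.8 and 13.4. Its log2 difference of 1.0 lay at the limit, and the call was lost without 1 library in 3 cases (0.97, 0.99 and 0.93 without Runx1KO replicate 1, Runx1KO replicate 2 and control replicate 3). Smad7 had 22.9, 18.5 and 20, then 26.2, 26.1 and 28.4, then 71.0, 74.0 and 78.4, so it rose in ZebDKO cells (1.82, limma adjusted p = 9.93e-07) and was not called in Runx1KO cells (0.38). Fbxo43 stayed at 0.2 TPM or lower in each library although its promoter region opened by 3.55.

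Members were also counted at listed epithelial and mesenchymal genes. The calls given for each list cover all its tested genes, with or without a member, so they do not describe the members. Of all tested genes with a gene model, 7.7% were higher and 5.15% lower in Runx1KO cells, and 7.2 and 6.92% in ZebDKO cells. Of all 22238 gene models, 613 (2.76%) were assigned a member within 100 kb, and 1681 (7.56%) had one at that distance whether or not it was assigned to them. Of 30 genes of epithelial junctions and cytoskeleton, 3 were assigned a member within 100 kb, and 5 had one at that distance. Of the 17 list genes tested in Runx1KO cells 16 were higher and none lower, and in ZebDKO cells 16 of 19 were higher. Only 2 of the tested genes were assigned a member. Jup, the plakoglobin of desmosomes and adherens junctions, had 2 members, 1 at its promoter, and measured 72.9, 70.7 and 67.2 TPM in control, 219.2, 219.1 and 211.9 in Runx1KO and 140.5, 147.7 and 151.8 in ZebDKO libraries. Cldn3, 15284 bp from the second most opened region, stayed at 0.4 TPM or lower in each library.

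Of 17 genes of polarity, splicing and trafficking, 2 were assigned a member and 5 had one within 100 kb. In Runx1KO cells 8 of 10 tested were higher and none lower, and in ZebDKO cells 8 of 11. Pard6b, a polarity protein of the apical Par complex, was assigned 3 members within 100 kb, at 15238, 34129 and 35475 bp. It measured 25.7, 23.4 and 24.0 TPM in control, 194.0, 183.2 and 197.1 in Runx1KO and 127.5, 123.7 and 122.0 in ZebDKO libraries (2.92 ± 0.05, limma adjusted p = 1.39e-08, and 2.31). Of its 3 members, 2 had Runx2 in control cells alone and 1 had all 3 peaks. C77080 was also assigned 3 members and rose from 29.5, 28.8 and 30.2 to 63.1, 64.4 and 62.7 TPM in Runx1KO cells. A further 33 genes were assigned 2 members and 577 were assigned 1.

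Of 17 epithelial transcription factors, 1 was assigned a member and 2 had one within 100 kb. The assigned one was Elf3, an Ets factor, with 30.8, 30.0 and 35.3 TPM in control, 120.8, 118.9 and 123.4 in Runx1KO and 133.8, 121.5 and 129.7 in ZebDKO libraries, and its member 74674 bp away had Runx2 in both lines. Among these factors 6 of 12 tested were higher in Runx1KO and 2 of 9 in ZebDKO cells. Of 30 mesenchymal genes, 1, Col5a1, was assigned a member, and no other had one within 100 kb. In Runx1KO cells 12 of 21 tested were lower and none higher, and in ZebDKO cells 6 were lower and 1 higher.

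Of 26 Runx, Zeb, AP-1, Grhl, Ovol, Klf and Tle factors and partners, 5 were assigned a member within 100 kb, and 6 had one at that distance. The member 46621 bp from the start of Runx1, at chr16:92872399-92873464, had peaks of all 3 lists at 4.96, 6.10 and 5.28 and 8 Runx matches, and opened by 1.61. Fos, a subunit of AP-1, had a Runx2 peak of control cells in a member 43403 bp away that opened by 1.87, and measured 400.1, 412.7 and 421.7 TPM in control, 1467.3, 1548.6 and 1485.1 in Runx1KO and 754.4, 762.6 and 738.9 in ZebDKO libraries. It rose in Runx1KO cells (1.86 ± 0.03, limma adjusted p = 1.72e-08), and its ZebDKO difference of 0.87 was under 2-fold, though not after median-ratio scaling (1.07). Jund, another AP-1 subunit, measured 508.9, 480.0 and 468.1 in control and 768.9, 750.9 and 791.2 TPM in Runx1KO libraries, and the difference of 0.67 was under 2-fold. Tle4, a Groucho-related corepressor, measured 9.6, 8.9 and 9.8 in control and 18.9, 19.2 and 19.2 TPM in Runx1KO libraries (0.95), with a member of Runx2 in both lines. Runx3 was at 0.3 TPM or lower in each library.

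The factors that could sit on the members were at these levels. Runx2 measured 6.0, 4.9 and 5.5 TPM in control, 3.9, 3.7 and 3.6 in Runx1KO and 3.1, 3.5 and 3.3 in ZebDKO libraries, with log2 differences of -0.45 and -0.59 that did not pass 2-fold. Cbfb, the common Runx partner, measured 83.0, 75.5 and 76.1, then 73.3, 71.4 and 74.3, then 57.3, 60.4 and 56.4. Grhl2, a factor of epithelial cells, was at 0.1 in each control library and at 5.0, 5.0 and 4.9 in Runx1KO libraries. Klf2, a Kruppel-like factor, rose from 76.1, 79.3 and 70.3 to 365.1, 380.7 and 386.3 TPM. Fosb, Ovol1 and Klf5 were also called higher in Runx1KO cells, by 1.81, 1.22 and 1.01, and the call of Klf5 was lost without 1 library (0.987 without control replicate 2 and 0.994 without control replicate 3).

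No member lay within 100 kb of any of the 29 marker genes of kidney mesenchyme, stroma, ureteric epithelium, endothelium or blood, and with 7.56% over all gene models nothing about these markers can be read from that. Their summed level moved with the lines. Mesenchyme and nephron progenitor markers summed to 725.6 to 733.5 TPM in control, 753.4 to 825.1 in Runx1KO and 632.9 to 661.8 in ZebDKO libraries, with Pax2 and Sall1 present and Six2 and Wt1 at 0.3 TPM or lower in each library. A sum follows its most abundant genes. Of the 7 mesenchyme and progenitor markers tested, 3 were lower and none higher in Runx1KO cells, with a median log2 difference of -0.44. In ZebDKO cells 2 of 7 were lower and 1 higher, with a median of -0.48. Stromal markers summed to 145.3 to 157.9, 92.9 to 98.1 and 82.8 to 86.5. Ureteric markers were at 1.6 or lower and endothelial ones at 5.8 or lower. Blood markers summed to 0.1 to 0.6 in control, 22.9 to 27.4 in Runx1KO and 8.6 to 11.7 in ZebDKO libraries through Spi1, a transcription factor, while Ptprc, the pan-leukocyte antigen, was at 0 in each library. The part of these shifts in the counts above was not tested.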

How the data were processed

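The reads of all 3 assays had been aligned to mm9 by the authors, who removed duplicates and called peaks with MACS2. The ATAC-seq lists hold regions found in at least 2 of 3 replicates, with a log2 fold change (Runx1KO relative to control) and an unlabelled −log10 value that the authors deposited from their own comparison. These made the lists and are given as descriptions. The ChIP-seq lists were called by the authors on combined replicates and give the fold over background, the −log10 q and the distance of the summit from the peak start. Peaks seen with the Runx1 antibody in Runx1KO cells had been removed. Expression was deposited as TPM, made by the authors from featureCounts 1.6.2 counts per RefSeq gene. TPM and peak lists keep no read depth, so precision was judged from the spread of the 3 replicates of a group, which were cultured separately but come from edited sub-lines whose number of clones is not given in the sources used here.

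Overlaps, distances and consensus matches were computed in Python 3.11.15 (numpy 2.4.6, pandas 2.3.3, scipy 1.17.1, pysam 0.24.0) on the mm9 genome (samtools 1.23.1) with the gene models of that build. Of 22238 protein-coding models, 20388 matched a name in the TPM table, 1715 of them after renaming through RefSeq synonyms. limma 3.58.1 (R 4.3.3) with a trend in the prior variance was fitted to log2(TPM + 1) of the 6 libraries of a comparison, for genes of at least 1 TPM in at least 3 libraries. The procedure was tested on simulated data. Shares carry 95% Wilson intervals for counting error only.

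The members and gene lists were chosen with earlier results of these data known. Named genes were the 12 with the largest change in each direction among called genes assigned to a member within 100 kb (11 fell), the nearest gene of each named region, 26 factors chosen by name, and listed genes with a member. Named regions were the 5 with the highest fold per ChIP-seq list and the 5 that opened most. Genes with 3 members and the repeat search were picked after values were seen. The values of 1 gene are not reported here. Sequence windows took the highest folds per peak pattern, and 1 member was passed over for an untranslated exon in its window. Alternatives covered the overlap, peak and region limits, search window and letters, gene assignment, pseudocount, filter, scaling, fit, fold limit, the other TPM table and each library left out.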

Additional observations from a re-analysis of the deposited data

Results flagged for a closer look

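Of the named genes, 54 were tested directly between the knockouts, and 27 differed by more than 2-fold (limma with Benjamini-Hochberg adjustment over all tested genes, 3 libraries against 3, adjusted p at most 2.55e-05). The values that follow are Runx1KO minus ZebDKO on the log2 scale. Control libraries do not enter this test, and clone and genotype cannot be told apart in it. Many of these genes were named for a large change in Runx1KO cells, which favours a difference here. The share of all tested genes that differed as much was not computed, so the count of 27 cannot be read as a trait of the named genes.

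Among genes near a Runx-marked opening region, Entpd3 (4.219) and Tekt5 (4.146) stood highest in Runx1KO cells, followed by Rassf6 (2.797), Tmem125 (2.516), Dpep1 (2.469), Capsl (2.01), B3gnt3 (1.548), B4galnt3 (1.411) and Ucp2 (1.25). Lower in Runx1KO than in ZebDKO cells were Eid2 (-2.327), Lrp1 (-1.473), Smad7 (-1.435), Col5a1 (-1.415) and Megf6 (-1.267).

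The differences from control had opposite signs for 8 of the 27 genes (Uchl1, Cldn1, Btg2, Runx1, Zeb1, Grhl1, Jun and Junb). These are signs alone, and only Uchl1 was called against control in both knockouts. The ZebDKO difference of Zeb1 was 0.095 (limma adjusted p = 0.205). Uchl1 (-2.829) was called lower in Runx1KO and higher in ZebDKO cells. Cldn1 (-1.293) was lower in Runx1KO cells, with 0.24 in ZebDKO cells. Btg2 (1.388) had 0.90 and -0.48. Runx1, summed over the whole gene, stood 1.466 higher in Runx1KO cells. The other factors were Zeb1 (-3.87), Zeb2 (-1.169), Klf2 (1.828), Jun (1.584), Grhl2 (1.49), Ovol1 (1.201), Grhl1 (1.08), Junb (-1.164) and Fosl1 (-1.055), and none of these had a member within 100 kb.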

How the results depend on the processing

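The number of members depended most on the overlap asked for. With at least 50% of the region covered by ChIP-seq peaks, 112 regions remained (1.188% of opening regions), of which 32.14% had peaks of Runx1KO cells alone, 13.39% a Runx1 peak and 74.11% a Runx consensus. Peaks above the median fold of their ChIP-seq list gave 241 (2.556%). The Runx consensus share was 29.1% in the 200 bp around the middle, 47.7% around the summit and 29.76% for TGTGGTT, the Zeb share 43.54% in the 200 bp and 66.96% for CAGGTG, and the AP-1 share 15.75%, since shorter windows, longer motifs and fewer spellings match less often. A call at 1.3-fold gave 206 genes higher and 69 lower in Runx1KO, and 145 and 132 in ZebDKO cells. The lower calls of Runx1KO cells numbered 7 with the nearest start, 4 with starts within 20 kb and 10 with a filter of 5 TPM, and those of ZebDKO cells 9 with the nearest start and 12 with starts within 20 kb. Fewer genes were tested in each of these, and with starts within 20 kb the share called lower in Runx1KO cells also fell, to 1.37% from 3.05%. The cause was not tested. Other alternatives left the counts within 1.5 times. Leaving out each library gave 104 to 109 higher and 14 to 17 lower genes in Runx1KO, and 82 to 87 and 21 to 24 in ZebDKO cells. The replicate block left the counts at 107, 16, 84 and 22, and same-numbered libraries did not deviate together (r from -0.05 to 0.04), so the numbers are not taken to pair them.

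Of the named genes, differences near 0 changed sign. With median-ratio scaling the ZebDKO differences became 0.151 for Megf6, 0.17 for Zfp407, 0.162 for Fosl2 and 0.097 for Klf4. Without 1 library, Chd4 in Runx1KO ranged from -0.044 to 0.102 and Klf4 from -0.031 to 0.074, and in ZebDKO Megf6 ranged from -0.062 to 0.036 and Zfp407 from -0.07 to 0.027. The call of Cldn1 in Runx1KO cells was lost with median-ratio scaling (-0.992), as was that of Zfp36l2 (-0.964), which was also lost without control replicate 1 or 3 (-0.991 and -0.98), and that of Fosb in ZebDKO cells without ZebDKO replicate 2 (0.981) or control replicate 1 or 3 (0.987 and 0.98). TPM and peak lists keep no depth, so limits of detection cannot be given.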
